A study of Mus musculus with 8 samples.

Results

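The mRNA levels of the NF-kappaB subunits and their inhibitors were followed in RAW264.7, a mouse macrophage-like cell line. The 10 genes were taken by name from the deposited count table and all 10 were found among its 42454 rows. They are the 5 Rel-family subunits Nfkb1, Nfkb2, Rel, Rela and Relb, the 3 classical cytoplasmic inhibitors Nfkbia, Nfkbib and Nfkbie, and the nuclear IkB proteins Nfkbiz and Bcl3. The study sequenced polyadenylated RNA from 4 labelled groups with 2 libraries each, 8 in all. The group LPS_IFNg_TubB carries the labels of Tubuloside B, a plant phenylethanoid glycoside, and of lipopolysaccharide (LPS, 10 ng/ml) with interferon-gamma (IFN-γ, 20 ng/ml) for 24 h. The group TubB carries the label of Tubuloside B alone, LPS_IFNg that of the same stimulus without the compound, and mock that of the solvent DMSO. All 4 groups are of this tumour-derived line. No dose of Tubuloside B and no treatment time of TubB and mock were found in the labels. The labels do not say whether the 2 libraries of a group are separate cultures, and the spread behind each p-value may be technical.

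NF-kappaB factors are dimers of Rel-family proteins that are held in the cytoplasm of resting cells by IkB proteins. Signals from Toll-like and cytokine receptors activate the IKK kinase complex, which marks IkB for destruction, and the freed dimers enter the nucleus and switch on inflammatory genes. Several genes of the system, among them Nfkbia, Nfkb1, Nfkb2, Relb and Nfkbiz, are themselves known NF-kappaB targets, which makes their mRNA part of a feedback loop in macrophages.

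Library totals ranged from 4767894 counts in LPS_IFNg_TubB replicate 1 to 8413834 counts in TubB replicate 2. Genes that answer to LPS and IFN-γ went against the labels. Nos2, inducible nitric oxide synthase, had 7429 and 6156 CPM (counts divided by the library total, corrected by edgeR's TMM factor) in the libraries labelled LPS_IFNg_TubB, 6964 and 5762 CPM in TubB, 199 and 166 CPM in LPS_IFNg and 176 and 155 CPM in mock. The cytokine gene Il6 had 301 and 267 raw counts in LPS_IFNg_TubB and 306 and 307 raw counts in TubB, but 0 in both LPS_IFNg libraries and 1 and 0 in mock. Summed over all 10 stimulus markers, the level was 10540 to 12760 CPM in LPS_IFNg_TubB, 9901 to 12380 CPM in TubB, 277.9 to 307.3 CPM in LPS_IFNg and 266 to 279.3 CPM in mock. High marker levels therefore went with the TubB label and not with the LPS_IFNg label. Every direction below refers to libraries as labelled, not to an established treatment. Of 10 macrophage markers 8 had counts, with Aif1 and Mertk at 0 in all libraries, and their summed level was 6716 to 6783 CPM in LPS_IFNg_TubB, 6349 to 6670 CPM in TubB, 6528 to 6685 CPM in LPS_IFNg and 6415 to 6494 CPM in mock. That sum is mostly Lyz2 (log2 0.04 ± 0.06 in LPS_IFNg_TubB minus LPS_IFNg and 0.02 ± 0.06 in TubB minus mock, neither called), and single markers differed. Of the 7 tested, 4 were higher and 1 lower in each of these comparisons in edgeR's test. Among all genes tested, 26.2% were called higher and 25.0% lower in LPS_IFNg_TubB minus LPS_IFNg. In TubB minus mock 26.3% were called higher and 24.9% lower. In TubB minus mock the log2 fold changes of the 5 called macrophage markers were 2.71 for Adgre1, 1.82 for Fcgr1, 0.80 for Itgam, 0.36 for Spi1 and -1.20 for Csf1r. Their part in the results below was not tested. Markers of other cell types summed to at most 1 count per library for T cells, 4 for B cells, 2 for epithelium and 21 for fibroblasts. In bulk RNA, fewer cells that express a gene and less RNA per cell cannot be told apart.

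The start sites of the genes were searched for the decamer that NF-kappaB dimers bind, to show where the family's own genes carry it. RefSeq promoter sequences (GRCm38.p6) matched 7 of the 10 genes by symbol with 9 start sites; Nfkb1, Relb and Nfkbiz were not among them. Both strands of the 250 bases before each start were read for the general kappaB consensus. It was found in 4 of the 7 genes, Nfkb2, Rel, Nfkbia and Nfkbie, and not in these windows of Rela, Nfkbib and Bcl3. The consensus occurs in the same window of 8.23% of 27025 genes and 7.25% of 32851 start sites. The windows of 3 of these 4 genes are shown in full because they carry the match outside annotated exons. Capitals mark the consensus match, and all run 5′ to 3′ towards the start site.
Rel, chr11:23770970-23771219, minus strand: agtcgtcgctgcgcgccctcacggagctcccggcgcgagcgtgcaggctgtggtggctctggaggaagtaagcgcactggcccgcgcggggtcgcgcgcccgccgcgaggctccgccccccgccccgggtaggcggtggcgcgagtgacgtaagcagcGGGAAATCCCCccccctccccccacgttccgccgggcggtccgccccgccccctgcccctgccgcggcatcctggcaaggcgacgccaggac
Nfkbia, chr12:55492648-55492897, minus strand: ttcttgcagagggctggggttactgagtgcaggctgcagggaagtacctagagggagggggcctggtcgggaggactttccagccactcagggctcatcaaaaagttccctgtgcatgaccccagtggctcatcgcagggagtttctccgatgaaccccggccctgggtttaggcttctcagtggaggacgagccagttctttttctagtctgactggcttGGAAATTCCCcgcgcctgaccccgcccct
Nfkbie, chr17:45555450-45555699, plus strand: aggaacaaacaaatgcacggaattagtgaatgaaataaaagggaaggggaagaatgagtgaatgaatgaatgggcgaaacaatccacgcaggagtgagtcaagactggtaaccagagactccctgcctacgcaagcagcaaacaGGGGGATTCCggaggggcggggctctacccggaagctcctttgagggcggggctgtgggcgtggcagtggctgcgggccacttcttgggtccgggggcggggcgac
In Rel the capitals hold 2 overlapping matches, from 92 to 82 bases before the start. In Nfkbia the match lies 29 to 20 bases before the start, on the opposite strand to the gene. In Nfkbie it lies 106 to 97 bases before the start. In Nfkb2 all 3 annotated starts have a match, among them GGGACTTTCC, the site of the immunoglobulin kappa enhancer in which the factor was first described. It lies in the window chr19:46305680-46305929 on the plus strand, 225 to 216 bases before the third start. That exact decamer occurs, on either strand, in the same window of 0.14% of start sites. A match describes letters and shows no binding.

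All 10 genes were higher in the libraries that carry the TubB label. In TubB minus mock 10 of 10 passed edgeR's quasi-likelihood test upward (Benjamini-Hochberg adjusted p under 0.05), with log2 fold changes of 0.80 to 2.16 and a median of 1.27 against -0.01 over all 11081 genes tested. The background is large, as 26.3% of all genes tested were called higher in that comparison, and 24.9% lower. In LPS_IFNg_TubB minus LPS_IFNg 10 of 10 were higher, with log2 fold changes of 0.85 to 2.40 and a median of 1.12. In that comparison 26.2% of all genes were called higher and 25.0% lower. It shares no library with TubB minus mock, but both come from the same fit with a shared spread estimate and are not fully separate tests. The libraries of the compared groups did not overlap for any of the 10 genes in either comparison, but the same was true of 76.2% of all genes tested in TubB minus mock (37.6% in the higher direction) and of 75.9% in LPS_IFNg_TubB minus LPS_IFNg (38.1% in the higher direction).

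**Figure D1:**
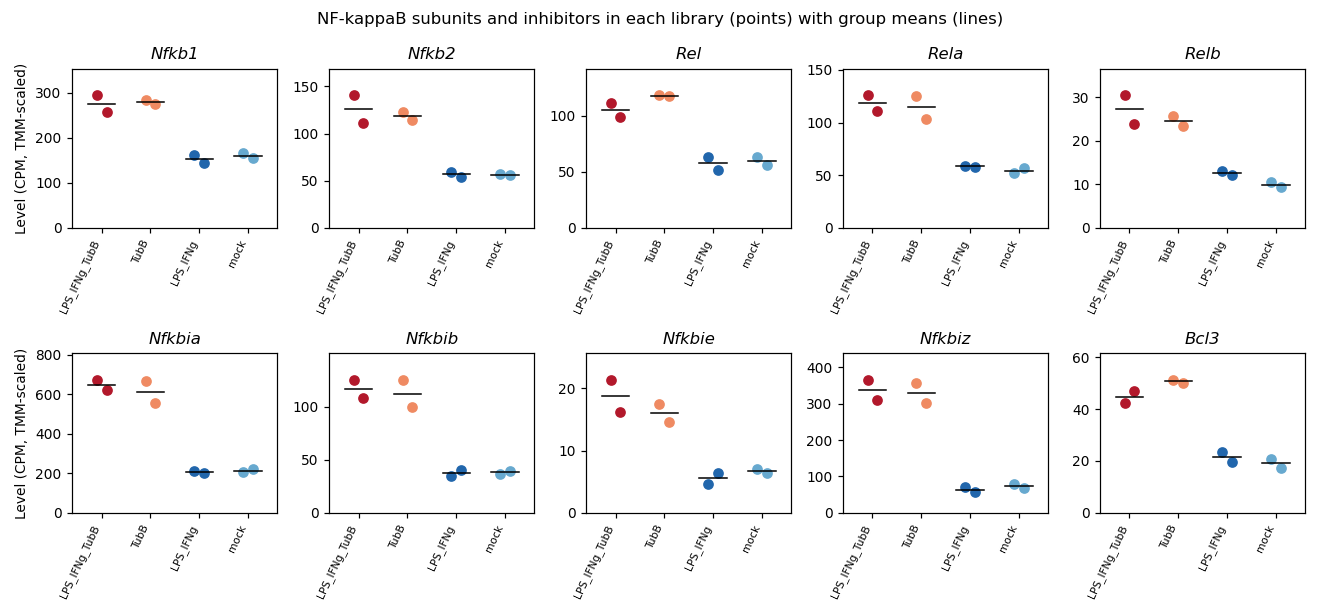
Level of each gene (CPM scaled by TMM factors, vertical axis from 0) in each library, by labelled group; points are the 2 libraries of a group and lines their mean. For all 10 genes the 4 libraries labelled LPS_IFNg_TubB or TubB lie above the 4 labelled LPS_IFNg or mock, by the widest ratio in Nfkbiz (302 CPM and above, against 78.6 CPM and below).

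Among the subunits, Nfkb1 encodes the precursor of the DNA-binding subunit p50 (chromosome 3, 135584655 to 135691969, GRCm38.p6, minus strand). It had 295 and 257 CPM in the libraries labelled LPS_IFNg_TubB, 285 and 276 CPM in TubB, 161 and 145 CPM in LPS_IFNg and 166 and 155 CPM in mock. The lowest of the 4 libraries with the TubB label was well above the highest of the 4 without it. The log2 fold change was 0.85 ± 0.08 (SE; adjusted p = 1.02e-09) for LPS_IFNg_TubB minus LPS_IFNg and 0.80 ± 0.08 (adjusted p = 2.04e-09) for TubB minus mock, the smallest of the 10 genes in both. Rela (chromosome 19, 5637442 to 5648134, plus strand) encodes p65, the main partner of p50 with a domain that activates transcription. Its levels were 126 and 111 CPM in LPS_IFNg_TubB, 126 and 103 CPM in TubB, 59.1 and 57.9 CPM in LPS_IFNg and 52.2 and 56.7 CPM in mock. The libraries with the TubB label lay apart from those without it. The log2 fold changes were 1.01 ± 0.11 (adjusted p = 7.26e-09) with the LPS_IFNg label and 1.06 ± 0.11 (adjusted p = 2.08e-09) without it. Rel (chromosome 11, 23736847 to 23770969, minus strand) encodes c-Rel, a subunit best known from lymphocytes and from cytokine genes of macrophages. It had 111 and 99.1 CPM in LPS_IFNg_TubB, 118 and 117 CPM in TubB, 63.0 and 52.0 CPM in LPS_IFNg and 63.4 and 56.0 CPM in mock. Both libraries labelled LPS_IFNg_TubB were below both labelled TubB, and these groups did not overlap in 26.8% of all genes either. The gap in Rel did not pass the test (log2 -0.17 ± 0.10, adjusted p = 0.999). The log2 fold changes for the TubB label were 0.86 ± 0.11 (adjusted p = 1.38e-07) with the LPS_IFNg label and 0.98 ± 0.11 (adjusted p = 6.50e-09) without it.

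Nfkb2 and Relb are the subunits of the non-canonical pathway, in which the p100 precursor is trimmed to p52 and pairs with RelB. Nfkb2 (chromosome 19, 46300994 to 46312400, plus strand) had 141 and 111 CPM in the libraries labelled LPS_IFNg_TubB, 123 and 115 CPM in TubB, 59.3 and 54.4 CPM in LPS_IFNg and 56.7 and 56.5 CPM in mock. The 2 mock libraries were nearly equal and the 2 LPS_IFNg_TubB libraries were the furthest apart. Its log2 fold change was 1.14 ± 0.11 (adjusted p = 7.02e-10) for LPS_IFNg_TubB minus LPS_IFNg and 1.07 ± 0.11 (adjusted p = 1.71e-09) for TubB minus mock. Relb (chromosome 7, 19606217 to 19629438, minus strand) was the least counted subunit, with 65 to 186 raw counts per library. It had 30.5 and 24.0 CPM in LPS_IFNg_TubB, 25.7 and 23.4 CPM in TubB, 13.2 and 12.1 CPM in LPS_IFNg and 10.5 and 9.38 CPM in mock. Its mean level was highest in LPS_IFNg_TubB and lowest in mock, but the libraries labelled LPS_IFNg_TubB and TubB overlapped. Its log2 fold change was 1.10 ± 0.20 (adjusted p = 2.77e-05) with the LPS_IFNg label in both groups and 1.30 ± 0.20 (adjusted p = 2.58e-06) without it. Because reads were counted without strand, overlapping genes cannot be separated fully. Exons of Nfkb2 overlap those of Psd, which had 464 counts over all 8 libraries, and of 4833438C02Rik with 84, and exons of Nfkb1 overlap those of Gm46827 with 349.

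Of the cytoplasmic inhibitors, Nfkbia encodes IkB-alpha, the rapidly destroyed and resynthesised inhibitor that ends an NF-kappaB pulse (chromosome 12, 55489409 to 55492647, minus strand). It had 672 and 620.25 CPM in the libraries labelled LPS_IFNg_TubB, 668 and 554 CPM in TubB, 213 and 199.955 CPM in LPS_IFNg and 208 and 220.3 CPM in mock. The libraries without the TubB label lay within a narrow band. The log2 fold change was 1.65 ± 0.08 (adjusted p = 1.37e-15) for LPS_IFNg_TubB minus LPS_IFNg and 1.51 ± 0.08 (adjusted p = 6.48e-15) for TubB minus mock. Nfkbib (chromosome 7, 28758251 to 28766644, minus strand) encodes IkB-beta, generally described as the slower and less inducible inhibitor. Its levels were 125 and 108 CPM in LPS_IFNg_TubB, 125 and 99.4 CPM in TubB, 34.7 and 40.1 CPM in LPS_IFNg and 36.8 and 39.2 CPM in mock. Its log2 fold changes were 1.64 ± 0.12 (adjusted p = 5.52e-12) for LPS_IFNg_TubB minus LPS_IFNg and 1.55 ± 0.12 (adjusted p = 9.65e-12) for TubB minus mock, each within 1 SE of that of Nfkbia. Nfkbie (chromosome 17, 45555700 to 45563169, plus strand) encodes IkB-epsilon and was the least counted of the 10 genes, with 28 to 116 raw counts per library. It had 21.3 and 16.2 CPM in LPS_IFNg_TubB, 17.6 and 14.6 CPM in TubB, 4.61 and 6.46 CPM in LPS_IFNg and 6.98 and 6.35 CPM in mock. The lowest library was LPS_IFNg replicate 1. The log2 fold change was 1.75 ± 0.26 (adjusted p = 1.84e-06) for LPS_IFNg_TubB minus LPS_IFNg and 1.25 ± 0.25 (adjusted p = 9.65e-05) for TubB minus mock.

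The nuclear IkB proteins bind NF-kappaB on DNA and change which genes it switches on. Nfkbiz (chromosome 16, 55811375 to 55838954, minus strand) encodes IkB-zeta, which secondary response genes such as Il6 need in macrophages. It had 365 and 311 CPM in the libraries labelled LPS_IFNg_TubB, 356 and 302 CPM in TubB, 69.8 and 57.8 CPM in LPS_IFNg and 78.6 and 68.7 CPM in mock. Its difference was the largest of the 10 in both comparisons, with a log2 fold change of 2.40 ± 0.11 (adjusted p = 1.49e-12) for LPS_IFNg_TubB minus LPS_IFNg and 2.16 ± 0.11 (adjusted p = 4.46e-12) for TubB minus mock. In TubB minus mock its 95% interval began at 1.93, above the upper bound of each of the other 9 genes, of which Nfkbib reached 1.80. In LPS_IFNg_TubB minus LPS_IFNg its interval began at 2.17 and overlapped that of Nfkbie, which reached 2.28. Bcl3 (chromosome 7, 19808462 to 19822824, minus strand) encodes a nuclear partner of p50 and p52 dimers. It had 42.5 and 47.1 CPM in LPS_IFNg_TubB, 51.2 and 50.1 CPM in TubB, 23.5 and 19.7 CPM in LPS_IFNg and 20.7 and 17.5 CPM in mock. As with Rel, both LPS_IFNg_TubB libraries were below both TubB libraries, and these groups did not overlap in 26.8% of all genes either. The gap in Bcl3 did not pass edgeR's test (log2 -0.17 ± 0.14, adjusted p = 0.999). Its log2 fold change for the TubB label was 1.05 ± 0.15 (adjusted p = 1.10e-06) with the LPS_IFNg label and 1.41 ± 0.15 (adjusted p = 3.59e-09) without it.

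With library totals and no scaling factors, the median log2 fold change of all genes was -0.23 in TubB minus mock. In LPS_IFNg_TubB minus LPS_IFNg it was -0.22. With TMM factors the median was -0.01 in both. The share of called genes that were higher was then 32.4% in place of 51.4% and 32.6% in place of 51.2%. The 10 genes were still all higher, by 0.59 to 1.94 in TubB minus mock and by 0.63 to 2.19 in LPS_IFNg_TubB minus LPS_IFNg.

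The LPS_IFNg label was set against its absence within each state of the TubB label. In LPS_IFNg minus mock 0 of the 10 genes passed edgeR's quasi-likelihood test, 0 had an unadjusted p under 0.05, and DESeq2 and limma on the deposited rlog values called 0. Over all genes tested 0% were called and 247 had an unadjusted p under 0.05. The log2 fold changes ran from -0.27 in Nfkbie to 0.35 in Relb. Relb and Rela were the 2 genes whose LPS_IFNg and mock libraries did not overlap, both higher in LPS_IFNg. The same held for 30.6% of all genes (15.8% in the higher direction), so 2 of 10 is no more than the background. In LPS_IFNg_TubB minus TubB 0 of the 10 passed by the same 3 tools, and 0 had an unadjusted p under 0.05. Their log2 fold changes ran from -0.17 in Bcl3 to 0.23 in Nfkbie. Of all genes 0% were called and 269 had an unadjusted p under 0.05. Rel and Bcl3 were the 2 non-overlapping genes there, both lower in LPS_IFNg_TubB. Of all genes, 26.8% did not overlap there, 13.4% in the higher direction and the rest in the lower. The widest intervals in these comparisons belong to Nfkbie, from -0.86 to 0.32 in LPS_IFNg minus mock and from -0.24 to 0.69 in LPS_IFNg_TubB minus TubB. The intervals of Nfkbiz ran from -0.45 to 0.04 in LPS_IFNg minus mock and from -0.17 to 0.25 in LPS_IFNg_TubB minus TubB, which leaves out a difference of the size seen for the TubB label.

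The difference between the 2 comparisons of the TubB label, the interaction, was tested for each gene. None of the 10 passed edgeR's test, 0 had an unadjusted p under 0.05, and DESeq2 and limma on the rlog values called 0. Across all genes 0% were called and 277 had an unadjusted p under 0.05. Nfkbie had the largest estimate, 0.50 more on the log2 scale with the LPS_IFNg label (95% interval -0.25 to 1.24), and Bcl3 the lowest, -0.35 (-0.79 to 0.08). Averaged over both states of the LPS_IFNg label, the TubB label went with a log2 difference of 0.83 ± 0.06 in Nfkb1 to 2.28 ± 0.08 in Nfkbiz, and 10 of 10 genes were higher, beside 31.7% of all genes called higher and 63.2% called in either direction. For all 10 the 4 libraries with the label did not overlap the 4 without it, as for 58.8% of all genes (29.7% in the higher direction). For the LPS_IFNg label averaged over both states of the TubB label, 0 of 10 passed and 0 of 10 did not overlap, beside 0.650% of all genes that did not overlap (0.271% in the higher direction). Of all genes, 0% were called and 278 had an unadjusted p under 0.05.

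**Figure D2:**
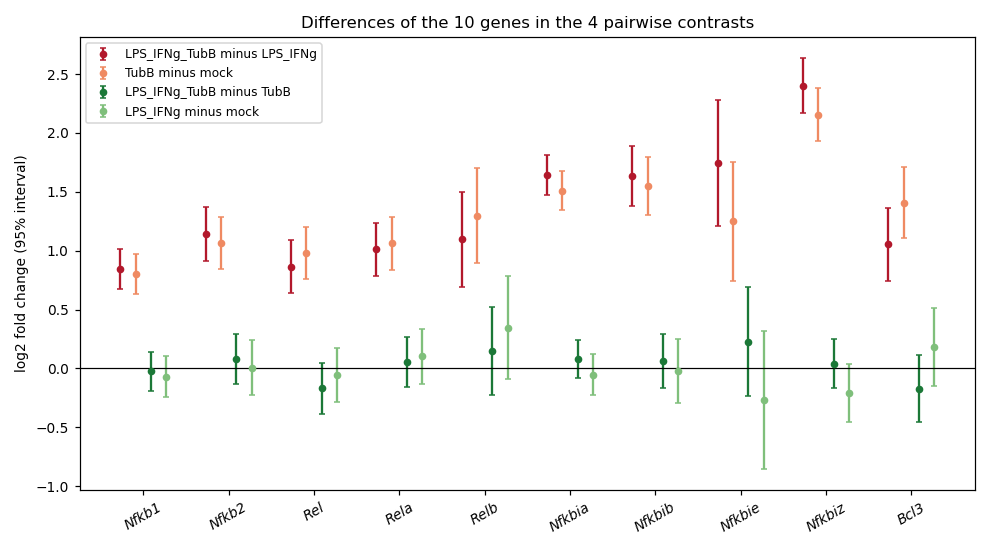
Log2 fold change with 95% interval of each gene in the 4 pairwise comparisons, from the edgeR fit over all 8 libraries. The comparisons of the TubB label lie between 0.80 and 2.40, and those of the LPS_IFNg label between -0.27 and 0.35 with intervals that cross 0.

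Levels were compared between genes per kilobase of deposited exon length. Nfkbia was the most abundant of the 10 in every group, with 409 ± 23.2 CPM per kb in the libraries labelled LPS_IFNg_TubB, 387 ± 51.1 in TubB, 131 ± 5.84 in LPS_IFNg and 136 ± 5.58 in mock (SD, n = 2 each). Nfkb1 was second in every group, at 60.5 ± 5.90 CPM per kb in LPS_IFNg_TubB, 61.5 ± 1.38 in TubB, 33.6 ± 2.60 in LPS_IFNg and 35.2 ± 1.84 in mock. In LPS_IFNg_TubB its libraries overlapped those of Nfkbib. Relb and Nfkbie closed the order in every group, and their libraries overlapped in LPS_IFNg_TubB. In mock the order was Nfkbia, Nfkb1, Rela, Nfkbib, Bcl3, Nfkbiz, Rel, Nfkb2, Relb and Nfkbie. The neighbours Rela and Nfkbib, Bcl3 and Nfkbiz, and Rel and Nfkb2 were not separated there by their libraries. LPS_IFNg kept that order apart from Rel and Nfkb2, and there Nfkbiz, Nfkb2 and Rel overlapped as neighbours. In both groups with the TubB label the order was Nfkbia, Nfkb1, Nfkbib, Nfkbiz, Rela, Bcl3, Nfkb2, Rel, Relb and Nfkbie. Nfkbiz stood at rank 4 there and at rank 6 in LPS_IFNg and mock, and its libraries overlapped those of Rela in LPS_IFNg_TubB and TubB and those of Nfkbib in TubB. Nfkb2 and Rel also overlapped in TubB.

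The balance of inhibitor to subunit mRNA differed with the TubB label. It is given as a description with no test because it restates the levels above. The summed level of the 5 subunits was 142 ± 15.2 CPM per kb in LPS_IFNg_TubB, 142 ± 8.34 in TubB, 73.7 ± 4.67 in LPS_IFNg and 73.3 ± 1.70 in mock. The summed level of Nfkbia, Nfkbib and Nfkbie was 472 ± 30.3 CPM per kb in LPS_IFNg_TubB, 446 ± 60.5 in TubB, 151 ± 3.54 in LPS_IFNg and 156 ± 6.22 in mock. Their ratio was 3.32 ± 0.14 in LPS_IFNg_TubB, 3.14 ± 0.24 in TubB, 2.05 ± 0.08 in LPS_IFNg and 2.13 ± 0.13 in mock. Inhibitor mRNA was higher relative to subunit mRNA in all 4 libraries with the TubB label than in any without it. Nfkbia made up 86.8 ± 0.64% of the inhibitor sum in LPS_IFNg_TubB, 86.7 ± 0.30% in TubB, 86.8 ± 1.85% in LPS_IFNg and 86.8 ± 0.13% in mock, a share that did not differ beyond its spread. Within the subunit sum, the share of Nfkb1 was 42.5 ± 0.41% in LPS_IFNg_TubB, 43.5 ± 1.58% in TubB, 45.5 ± 0.64% in LPS_IFNg and 48.1 ± 1.39% in mock. Nfkb1 over Rela was 1.47 ± 0.01 in LPS_IFNg_TubB, 1.55 ± 0.18 in TubB, 1.64 ± 0.10 in LPS_IFNg and 1.86 ± 0.21 in mock, with spreads that overlap between neighbouring groups. Of the nuclear IkB proteins, Nfkbiz over Bcl3 was 1.91 ± 0.35 in LPS_IFNg_TubB and 1.63 ± 0.16 in TubB, against 0.74 ± 0.01 in LPS_IFNg and 0.97 ± 0.02 in mock. Nfkbiz was above Bcl3 per length in all 4 libraries with the TubB label and below it in all 4 without.

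**Figure D3:**
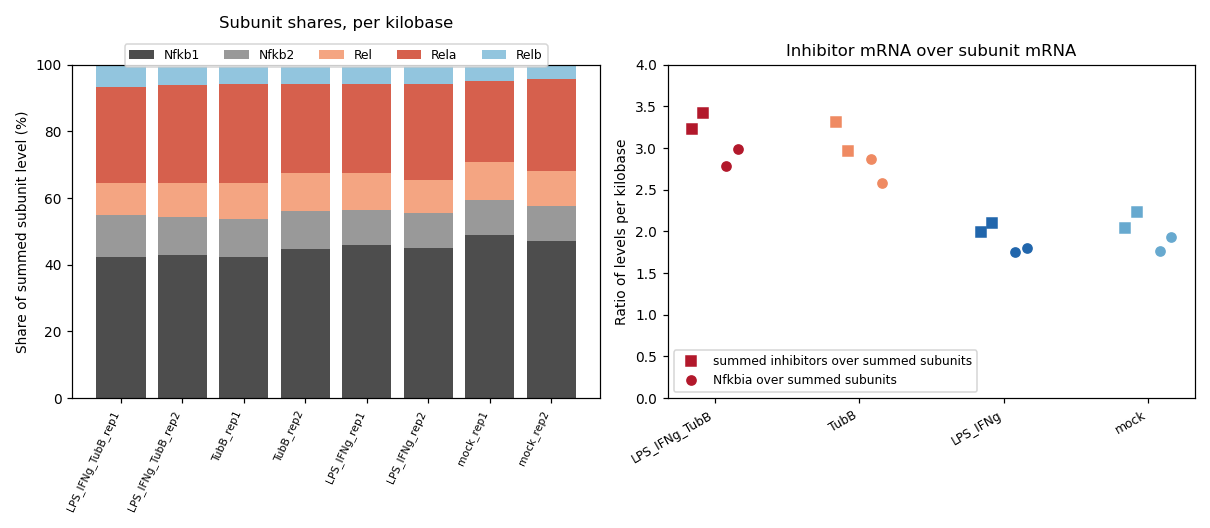
Left, share of each subunit in the summed subunit level (CPM per kb, %) in each library; right, summed inhibitors (squares) and Nfkbia alone (circles) over summed subunits, 2 libraries per group. The subunit shares differ by a few points, while the inhibitor ratio averages 3.32 in LPS_IFNg_TubB and 3.14 in TubB, against 2.05 in LPS_IFNg and 2.13 in mock.

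The genes around the subunits were counted from lists of pathway members, again in edgeR's quasi-likelihood test. The median over all genes tested was -0.01 in both comparisons of the TubB label, and 51.2% of all genes were called in either direction in each. In LPS_IFNg_TubB minus LPS_IFNg 26.2% of all genes were called higher and 25.0% lower, and in TubB minus mock 26.3% higher and 24.9% lower. Among 21 receptors and adaptors, 15 were higher and 2 lower in both LPS_IFNg_TubB minus LPS_IFNg and TubB minus mock, with median log2 fold changes of 0.90 and 0.91. Those with the largest difference in TubB minus mock were Cd40, a receptor of both NF-kappaB pathways that is also 1 of the stimulus markers (6.22 ± 0.34, adjusted p = 2.93e-05), the tumour necrosis factor receptor Tnfrsf1b (2.58 ± 0.09), the double-stranded RNA sensor Tlr3 (2.26 ± 0.23) and the Toll-like receptor adaptor Ticam2 (2.19 ± 0.13). Tlr4, the receptor of LPS itself, was not called in LPS_IFNg_TubB minus LPS_IFNg (-0.23 ± 0.10) or in TubB minus mock (0.04 ± 0.10). Under library totals alone it was called lower in LPS_IFNg_TubB minus LPS_IFNg (-0.44, adjusted p = 0.000962). Of 13 genes of the IKK complex and the kinases above it, 8 were higher and 1 lower in LPS_IFNg_TubB minus LPS_IFNg, and 7 were higher and 1 lower in TubB minus mock. Called in either direction were thus 9 of 13 in LPS_IFNg_TubB minus LPS_IFNg and 8 of 13 in TubB minus mock, not far from the 51.2% of all genes. Their median log2 fold change was 0.58 in LPS_IFNg_TubB minus LPS_IFNg and 0.29 in TubB minus mock. Ripk2, the kinase of NOD receptor signalling, had 229 and 199.9 CPM in LPS_IFNg_TubB and 218 and 184 CPM in TubB, against 45.3 and 37.5 CPM in LPS_IFNg and 34.3 and 39.95 CPM in mock. The IKK-related kinase Tbk1 (1.15 ± 0.09) and Ripk1, a kinase of tumour necrosis factor signalling (0.97 ± 0.10), were also higher in TubB minus mock. None of the 3 genes of the IKK core complex had a difference as large. The log2 fold changes in LPS_IFNg_TubB minus LPS_IFNg and in TubB minus mock were 0.09 ± 0.11 and 0.05 ± 0.11 for Ikbkb, 0.11 ± 0.12 and 0.23 ± 0.12 for Ikbkg, neither called, and 0.59 ± 0.11 and 0.29 ± 0.11 for Chuk, both called. The call of Chuk in TubB minus mock was lost without TubB replicate 2 (0.24, adjusted p = 0.159), mock replicate 1 (0.33, adjusted p = 0.0673) or mock replicate 2 (0.25, adjusted p = 0.156). It was also lost with library totals alone (0.08, adjusted p = 0.592), with DESeq2 (0.30, adjusted p = 0.0729) and with no count filter (0.28, adjusted p = 0.0586). Chuk, Ikbkb, Ikbkg, Tlr4, Traf3 and Xiap are named here after their values were seen. Tab1, an adaptor of the kinase TAK1, was the gene called lower, with 17.7 and 13.2 CPM in LPS_IFNg_TubB and 5.71 and 13.7 CPM in TubB, against 27.5 and 24.8 CPM in LPS_IFNg and 22.6 and 27.7 CPM in mock. Its log2 fold change was -1.27 ± 0.26 in TubB minus mock and -0.78 ± 0.26 in LPS_IFNg_TubB minus LPS_IFNg, where the call (adjusted p = 0.0183) was lost without LPS_IFNg_TubB replicate 2 (-0.56, adjusted p = 0.166), LPS_IFNg replicate 1 (-0.70, adjusted p = 0.116) or LPS_IFNg replicate 2 (-0.85, adjusted p = 0.0542).

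Ubiquitin regulators, which build or remove the chains that carry the signal to IKK, had 14 of 19 tested genes higher and 1 lower in each comparison of the TubB label. Of all genes, 26.2% were higher and 25.0% lower in LPS_IFNg_TubB minus LPS_IFNg, and 26.3% and 24.9% in TubB minus mock. The ubiquitin regulators had a median of 0.67 in LPS_IFNg_TubB minus LPS_IFNg and 0.75 in TubB minus mock. Tnfaip3, which encodes the feedback inhibitor A20, had 507 and 419.5 CPM in LPS_IFNg_TubB and 533 and 417 CPM in TubB, against 65.2 and 71.0 CPM in LPS_IFNg and 60.6 and 60.004 CPM in mock. Its log2 fold change of 2.97 ± 0.13 in TubB minus mock exceeded that of each of the 10 genes. Birc3 (2.18 ± 0.22), which encodes a cIAP ubiquitin ligase, the A20-binding Tnip3 (1.65 ± 0.16) and the ligase Peli1 (1.43 ± 0.13) were next among genes with a mean log2 CPM of at least 3. Traf1, a signalling adaptor named after its values were seen, had a larger difference (6.66 ± 0.45) but few counts without the TubB label. It had 313 and 291 raw counts in LPS_IFNg_TubB and 303 and 321 raw counts in TubB, against 4 and 3 in LPS_IFNg and 4 and 3 in mock. The gene called lower was Traf3, whose protein restrains the non-canonical pathway by promoting the destruction of the kinase NIK, by -0.69 ± 0.10 in LPS_IFNg_TubB minus LPS_IFNg and -0.60 ± 0.10 in TubB minus mock.

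Of 9 tested genes for other IkB-like proteins and nuclear regulators, 0 were higher and 4 lower in each comparison, with a median of -0.38 in LPS_IFNg_TubB minus LPS_IFNg and -0.32 in TubB minus mock. The share called in either direction, 4 of 9, is no more than the 51.2% of all genes in each comparison. In the lower direction alone, 25.0% of all genes were called in LPS_IFNg_TubB minus LPS_IFNg and 24.9% in TubB minus mock. Those shares are below 4 of 9. The count of 4 was 2 without TubB replicate 2 or mock replicate 1 in TubB minus mock, and 2 without LPS_IFNg_TubB replicate 1 or 2 in the other. Nfkbid, the third nuclear IkB gene beside Nfkbiz and Bcl3, had 51.2 and 50.7 CPM in LPS_IFNg_TubB and 46.3 and 55.2 CPM in TubB, against 99.4 and 95.1 CPM in LPS_IFNg and 98.9 and 90.7 CPM in mock. Its log2 fold change was -0.93 ± 0.11 (adjusted p = 4.17e-08) for LPS_IFNg_TubB minus LPS_IFNg and -0.89 ± 0.11 (adjusted p = 6.30e-08) for TubB minus mock, opposite in sign to both of its relatives. Nkrf (-0.50 ± 0.18), a transcriptional repressor of NF-kappaB targets, Pdlim2 (-0.47 ± 0.14), a ligase that ends nuclear p65 activity, and Cactin (-0.37 ± 0.12) were the others called lower in TubB minus mock. In LPS_IFNg_TubB minus LPS_IFNg the others were Pdlim2 (-0.43 ± 0.15), Cactin (-0.56 ± 0.12) and Commd1 (-0.44 ± 0.16), the last named after its values were seen. The call of Pdlim2 in that comparison was lost with DESeq2 (-0.42, adjusted p = 0.0623). It was also lost without LPS_IFNg_TubB replicate 1 (-0.40), LPS_IFNg_TubB replicate 2 (-0.46) or LPS_IFNg replicate 2 (-0.31). Nkrf was not called there by edgeR (-0.38, adjusted p = 0.0959), nor was Commd1 in TubB minus mock (-0.32, adjusted p = 0.0775). DESeq2 did not call Nkrf in TubB minus mock (-0.47, adjusted p = 0.0904). Without TubB replicate 2 the calls of Nkrf (-0.25, adjusted p = 0.371) and Cactin (-0.33, adjusted p = 0.0616) were lost, without mock replicate 1 those of Nkrf (-0.38, adjusted p = 0.188) and Cactin (-0.36, adjusted p = 0.0561), and without mock replicate 2 that of Pdlim2 (-0.35, adjusted p = 0.108).

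Of 36 textbook NF-kappaB target genes, 31 were tested and 30 of these were higher in each comparison. Beside them, 26.2% of all genes were higher in LPS_IFNg_TubB minus LPS_IFNg and 26.3% in TubB minus mock. The medians of the targets were 2.49 in LPS_IFNg_TubB minus LPS_IFNg and 2.50 in TubB minus mock. Those with the largest difference in TubB minus mock at a mean log2 CPM of at least 3 were the transcription factor gene Irf1 (6.71 ± 0.11), the growth factor gene Csf3 (5.84 ± 0.16), the prostaglandin synthase gene Ptgs2 (5.35 ± 0.37) and Nos2 (5.26 ± 0.16). Xiap, an inhibitor of cell death, was the 1 tested gene not called. The target list shares 7 of its 36 genes with the stimulus markers and is not independent of them. Of the 93 tested genes of these 5 lists, edgeR, DESeq2 and limma on the rlog values called 0 in LPS_IFNg minus mock, in LPS_IFNg_TubB minus TubB and in the interaction. Unadjusted p-values under 0.05 were found for 0 of them in LPS_IFNg minus mock, 2 in LPS_IFNg_TubB minus TubB and 0 in the interaction.

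**Figure D4:**
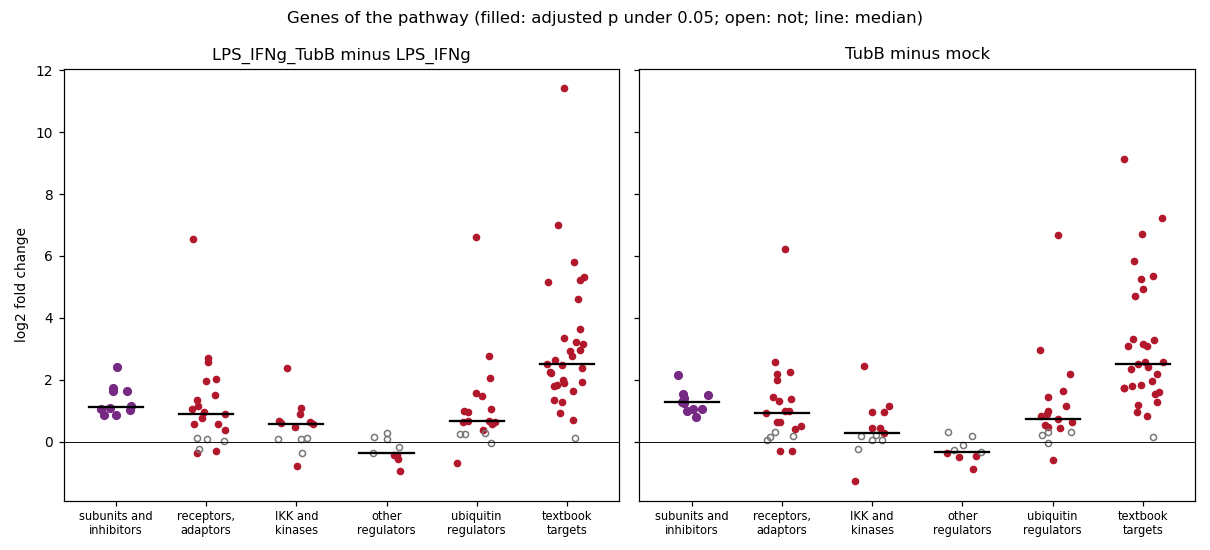
Log2 fold change of every tested gene of the subunits and inhibitors (all called) and of 5 lists around them, in LPS_IFNg_TubB minus LPS_IFNg (left) and TubB minus mock (right); filled points were called, open ones were not, and lines are medians. By median, targets lie highest (2.49 and 2.50), the subunits and inhibitors lie at 1.12 and 1.27, and the other regulators lie below 0 (-0.38 and -0.32). Single genes among the other regulators lie on both sides of 0.

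Over the 8 libraries, 6 of the 10 genes formed pairs whose patterns were each other's nearest. By Euclidean distance between gene-centred log2 CPM values, Nfkb1 and Rel were nearest to each other among the 10 (distance 0.23), as were Nfkb2 and Rela (0.24) and Nfkbia and Nfkbib (0.23). Nfkbiz stood furthest from its nearest relative, Nfkbia (1.04), followed by Bcl3 from Relb (0.52), Nfkbie from Nfkbib (0.43) and Relb from Nfkb2 (0.37). This distance grows with the size of the difference between libraries, which was largest in Nfkbiz. The Pearson correlation with the same nearest gene was highest in Nfkbiz (0.9953) and lowest in Bcl3 (0.9562). Among 8599 other genes, the most alike by distance was Pdcd10 for Nfkb1 (0.12), Eya4 for Nfkb2 (0.11), Tut7 for Rel (0.21), Tspo for Rela (0.12) and Chka for Relb (0.23). For the inhibitors it was the chemokine gene Ccl3 for Nfkbia (0.18), Apbb2 for Nfkbib (0.12) and Nub1 for Nfkbie (0.35), and for the nuclear proteins Tmem106a for Nfkbiz (0.30) and Gtpbp2 for Bcl3 (0.21). These distances are descriptions over 8 libraries, whose first principal component (83.6% of variance) separates those with and without the TubB label.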

How the data were processed

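The submitters' processing notes name STAR 2.7.0 and featureCounts. Per the file headers, version 2.0.1 of the counter counted read pairs over exons by gene in a RefSeq annotation of GRCm38.p6, with no strand option, so overlapping genes on opposite strands cannot be separated. The authors deposited these raw counts, a gene length and rlog (log2) values, the last used only in an alternative. The length, the other deposited column, is in bases of exon per the file headers and served to express levels per kilobase.

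From the counts, edgeR 4.0.16 (R 4.3.3) was run with TMM factors, a filter (minimum count 10, minimum total 15) and the quasi-likelihood test on all 8 libraries with group as the only term. P-values were adjusted by Benjamini-Hochberg over all 11081 genes and called under 0.05. Errors of fold changes are SE and those of levels SD. Log2 CPM used a prior count of 2. The totals of 4767894 to 8413834 counts limit precision for genes with few counts. Alternatives were other factors, filters and samples, a replicate block, DESeq2 1.42.0, limma 3.58.1 and leaving out each library. All 10 genes were named; from each list up to 4 called genes with the largest change in TubB minus mock and a mean log2 CPM of at least 3 were named, and for likeness the 1 nearest gene per member. The genes and lists were chosen with earlier results of these data known. Groups and replicate numbers are those of the labels. Between any 2 libraries the mean chi-square per gene was at least 1.915, above sampling noise. It was 1.94 and 2.28 between same-numbered libraries of LPS_IFNg_TubB and TubB, against 3.2 and 4.62 within these groups. Between same-numbered libraries of LPS_IFNg and mock it was 1.965 and 1.915, against 2.53 and 2.855 within these groups. Of the 10 genes, all were higher in replicate 1 than in replicate 2 of TubB, and all but Bcl3 in LPS_IFNg_TubB. The share of all genes with that direction was not counted. The replicates differed beyond these genes. On the first principal component of all genes tested, replicates 1 and 2 lay at -57.9 and -43.4 in TubB. In LPS_IFNg_TubB they lay at -58.1 and -47.2.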

Additional observations from a re-analysis of the deposited data

How the results depend on the processing

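The 10 genes kept their direction and their side of the threshold in both pairwise comparisons of the TubB label under all 16 alternatives, 160 values each, with a largest adjusted p of 0.00324 (Nfkbie, TubB minus mock) and 0.00176 (Relb, LPS_IFNg_TubB minus LPS_IFNg). Limma on the rlog values gave the lowest fold changes, 0.54 to 1.41 on the log2 scale in TubB minus mock and 0.56 to 1.55 in LPS_IFNg_TubB minus LPS_IFNg. In the comparisons of the LPS_IFNg label and in the interaction no alternative called any of the 10. With the replicate block, 5729 genes were called in TubB minus mock and 5753 in LPS_IFNg_TubB minus LPS_IFNg. All of the 10 genes were among those called in each. In each comparison of the LPS_IFNg label 0 genes were called. The main fit did not pair libraries by number. Deviations of same-numbered libraries correlated by -0.05 to 0.15, highest between LPS_IFNg_TubB and TubB (0.15) and next between LPS_IFNg and mock (0.09). Same-numbered libraries of these groups were also closer by mean chi-square than the libraries within a group. Whether the numbers mark libraries handled together was not tested. The count of other regulators called in LPS_IFNg_TubB minus LPS_IFNg was 2 with DESeq2. Levels per kilobase moved beyond 1 SD for 17 of 40 values with library totals alone and for 1 of 40 with RLE factors. Depth limits mainly Nfkbie and Relb, and 2 libraries a group limit every interval.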
